A study of Mus musculus with 12 samples.

Results

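The acetylation marks H3K27ac and H3K9/14ac of histone H3 were compared region by region and gene by gene in fibro-adipogenic progenitors (FAPs) from old, vehicle-treated mdx mice. FAPs are mesenchymal cells of skeletal muscle that can become adipocytes or matrix-producing fibroblasts. The mdx mouse carries a defective dystrophin gene and is used as a model of Duchenne muscular dystrophy. The old vehicle animals were C57Bl6 mdx mice of 12 months that received saline into the peritoneum daily for 15 days. Their muscle cells were sorted by flow cytometry and subjected to chromatin immunoprecipitation and sequencing with an antibody to each mark. All groups of the series were mdx mice, so no group has intact dystrophin. The other groups, used here only for side-by-side values, were young (1.5 months) vehicle mice and young and old mice given trichostatin A (TSA), a histone deacetylase inhibitor, at 0.6 mg/kg/day. The labels state neither how many animals were pooled per library nor which surface markers defined the sorted cells.

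The 2 peak lists of old vehicle FAPs were taken over the stretch of the genome that both cover here, chromosomes 1 to 3 and chromosome 4 up to position 148075753 (build GRCm38). This gave 7764 H3K27ac and 6082 H3K9/14ac peaks, or 13846 of the 77135 peaks read in the 8 lists of the series. They are 24.2% of the H3K27ac peaks and 23.8% of the H3K9/14ac peaks that the list headers count genome-wide. The peaks held 1298676 H3K27ac and 1136407 H3K9/14ac tags, a tag being 1 aligned read. Each mark had 1 library, so there is no replicate error and no p-value, and the 95% intervals given with shares (exact binomial) and medians (order statistics) cover counting error only. The tags are not scaled to library depth and the antibodies differ, so a ratio of the marks has no absolute zero point, and ratios are compared only between places or genes within the same pair of libraries. A weaker mark in every cell and a mark in fewer cells cannot be told apart in such bulk data.

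Acetylation of lysines in the tail of histone H3 loosens the contact of nucleosomes with DNA and is read by bromodomain proteins. H3K27ac is laid down mainly by the p300 and CBP acetyltransferases and marks active promoters and active enhancers. Acetylation at the H3K9 position is laid down largely by the GCN5 and PCAF group of enzymes. Acetylation at H3K9 and H3K14 is best known from promoters, where it accompanies transcription initiation. The 2 marks therefore overlap at promoters in most cell types, and enhancers are usually mapped with the first.

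Markers of the sorted population were present. All 10 FAP identity genes that lie in the stretch had a peak of at least 1 mark at a gene end, whereas none of 20 olfactory and sensory receptor genes and 2 of 31 neural genes did. Among all 5157 protein-coding genes of the stretch 42.3% had both marks at a gene end and 44.2% neither. Of 20 muscle fibre genes 1 was marked, Nexn, and Ttn, Neb, Des and Actc1 had no peak at a gene end. Pax7, Pax3 and Myog of the muscle stem cell lineage had none either, while 4 of the 11 genes of that list (Spry1, Notch2, Sdc4 and Vcam1) had both marks. Of 21 macrophage genes 16 had neither mark, among them Ptprc, Laptm5 and C1qa, and Spi1 and Slc11a1 had both. Of 19 lymphocyte genes 14 had neither, while Cd247 and Icos had both marks and Cxcr4 had only H3K9/14ac. At Slc11a1 and Cd247 no peak of either mark lay within 1000 bp of the known gene start. Of 14 endothelial genes 8 had both marks at a gene end, among them Eng, Sox17 and Egfl7. The part of other cells in the results below was not tested.

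The library labels carry 1 reservation. Over regions with a peak in all 4 lists of a mark, the old vehicle H3K27ac tags correlated most closely with those of old TSA (Spearman's rho 0.93 over 3706 regions, against 0.89 for young vehicle and 0.88 for young TSA). The old vehicle H3K9/14ac tags correlated most closely with those of young TSA (rho 0.91 over 1709 regions) and equally with old TSA and young vehicle (0.88 each). Young vehicle H3K9/14ac tags were also closest to those of young TSA (0.91, against 0.90 for old TSA), so this likeness was not particular to old vehicle. These correlations share libraries and gene sizes and are given as description. For this reason 9 values were also recomputed with the H3K9/14ac library labelled old TSA in place of that labelled old vehicle. They are the shares of peaks shared, gene counts by class, shares of regions at gene ends and the difference in tag ratio by place. The exchange shows how the values change with another library of the mark. It did not use the closest library, young TSA, and does not test the labels.

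An example promoter of each of the 4 possible classes is given, the class being that of peaks near the gene start. The 250 bases upstream of the gene start are given 5′ to 3′ on the gene's own strand, from RefSeq on GRCm38.p6, with CpG dinucleotides in capitals.
Jun, both marks, chr4:95052223-95052472, minus strand: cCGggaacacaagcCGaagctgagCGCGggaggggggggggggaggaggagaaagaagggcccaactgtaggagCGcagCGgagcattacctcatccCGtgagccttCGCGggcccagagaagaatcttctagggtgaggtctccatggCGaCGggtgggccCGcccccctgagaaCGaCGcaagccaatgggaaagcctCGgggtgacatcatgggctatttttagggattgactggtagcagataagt
Col3a1, only H3K27ac, chr1:45311288-45311537, plus strand: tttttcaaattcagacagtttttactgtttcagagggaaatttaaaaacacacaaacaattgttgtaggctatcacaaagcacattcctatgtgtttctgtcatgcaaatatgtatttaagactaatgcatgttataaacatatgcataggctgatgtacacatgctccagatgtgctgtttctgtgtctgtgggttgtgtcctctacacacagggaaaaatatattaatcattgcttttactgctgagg
Nes, only H3K9/14ac, chr3:87970843-87971092, plus strand: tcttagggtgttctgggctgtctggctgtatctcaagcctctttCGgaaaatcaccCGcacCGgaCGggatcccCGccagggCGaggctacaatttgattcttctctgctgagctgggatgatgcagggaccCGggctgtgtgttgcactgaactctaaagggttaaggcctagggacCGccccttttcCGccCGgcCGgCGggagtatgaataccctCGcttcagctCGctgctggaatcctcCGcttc
Myog, neither mark, chr1:134289754-134290003, plus strand: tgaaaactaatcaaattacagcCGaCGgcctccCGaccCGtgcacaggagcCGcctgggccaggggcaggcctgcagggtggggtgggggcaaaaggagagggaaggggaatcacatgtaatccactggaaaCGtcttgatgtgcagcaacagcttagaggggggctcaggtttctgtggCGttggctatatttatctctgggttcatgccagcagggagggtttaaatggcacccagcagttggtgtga
Jun, an immediate early transcription factor, has 15 CpGs in this stretch and Nes, which encodes the intermediate filament nestin, also has 15. Col3a1, which encodes the alpha chain of type III collagen, has 0, and Myog, the muscle differentiation factor myogenin, has 7. At Jun an H3K27ac peak of 2479 bp with 930 tags and an H3K9/14ac peak of 2403 bp with 1212 tags both covered the gene start. Most of the printed Jun stretch lay upstream of these peaks, which ended at positions 95052290 (H3K27ac) and 95052244 (H3K9/14ac). The next peaks upstream began at 95052488 and 95052511, beyond the printed stretch. At Col3a1 the start lay in an H3K27ac peak of 1719 bp with 353 tags, while the only H3K9/14ac peak near by had 161 bp and 40 tags and lay inside the gene. At Nes no H3K27ac peak came within 5000 bp of the start, which lay in an H3K9/14ac peak of 2399 bp with 377 tags. These genes were chosen after their values were seen, as clear examples of each class.

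The peaks of the marks were of similar median width. H3K27ac peaks had a median width of 645 bp (quartiles 395 and 1081 bp) and H3K9/14ac peaks one of 632 bp (quartiles 372 and 983 bp). The widest reached 9679 bp for H3K27ac and 4660 bp for H3K9/14ac. The median H3K27ac peak held 105 tags and the median H3K9/14ac peak 133 tags, and the median densities were 170 and 220 tags per kb. These counts are not scaled between the libraries and the antibodies differ, so they do not show which mark is denser. H3K27ac peaks covered 6.55 Mb and H3K9/14ac peaks 4.51 Mb. The 2.87 Mb under both marks were 43.8% of the H3K27ac length and 63.6% of the H3K9/14ac length.

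About equal parts of the H3K27ac peaks did and did not overlap an H3K9/14ac peak, whereas most H3K9/14ac peaks were shared. Of the H3K27ac peaks 49.8% (interval 48.7 to 50.9) overlapped an H3K9/14ac peak by at least 1 bp, while 67.2% (66.0 to 68.4) of those called for H3K9/14ac were shared with H3K27ac. The shares varied little along the genome: between chromosomes they ranged from 47.9% to 51.1% of H3K27ac peaks and from 65.5% to 69.4% of H3K9/14ac peaks. Shared peaks were larger in both lists. Shared H3K27ac peaks had a median of 166 tags and the others 74 tags, and shared H3K9/14ac peaks had 183 tags and the others 86 tags. Nesting was mostly of H3K9/14ac within H3K27ac: 1783 H3K9/14ac peaks, 43.6% of those that overlapped, lay wholly within an H3K27ac peak, against 863 H3K27ac peaks (22.3% of those that overlapped) wholly within an H3K9/14ac peak.

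Merging overlapping or touching peaks of the 2 lists gave 9483 regions. Both marks were present in 3591 regions (37.9%), only H3K27ac in 3896 (41.1%) and only H3K9/14ac in 1996 (21.0%). Regions with both marks had a median width of 1133 bp. Regions with only H3K27ac had a median of 483 bp and those with only H3K9/14ac 480 bp.

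The classes lay in different places. A region was counted at a gene end when it came within 1000 bp of either annotated end of 1 of the 5157 protein-coding genes in the stretch. Of the regions with both marks 65.0% (63.4 to 66.5) were at a gene end. Of those with only H3K27ac 9.83% (8.91 to 10.8) were, and of those with only H3K9/14ac 48.2% (46.0 to 50.4). Regions with only H3K27ac lay mainly inside genes (55.6%) or outside them (34.6%), with a median distance of 25677 bp to the nearest gene end among those away from one. For regions with both marks that distance was 11778 bp and for regions with only H3K9/14ac 10093 bp. Turned round, 10.4% of all regions at gene ends carried only H3K27ac, against 68.2% of the regions outside genes.

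**Figure D1:**
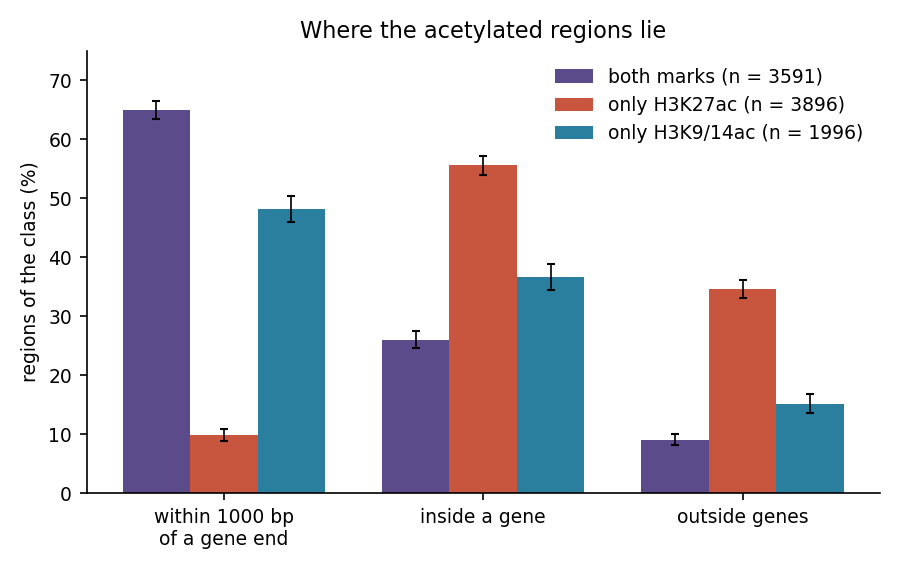
Share of regions of each class (bars, in percent of the class, with exact binomial 95% intervals) that lie within 1000 bp of a gene end, inside a gene or outside genes. Regions with both marks stand highest at gene ends at 65.0%, and regions with only H3K27ac stand lowest there at 9.83%.

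Size and place both went with sharing, and did so differently for the marks. An H3K27ac peak at a gene end was shared in 86.7% of cases (85.4 to 87.9), one inside a gene in 32.6% and one outside genes in 19.6%. For H3K9/14ac the shares were 71.8% (70.3 to 73.3) at gene ends, 63.1% inside genes and 55.9% outside. Among peaks of like size the gap by place was seen for H3K27ac and not for H3K9/14ac. In the lowest tag quartile of H3K27ac peaks 63.4% were shared at gene ends and 11.5% elsewhere, and in the highest quartile 97.1% at gene ends and 63.4% elsewhere. For H3K9/14ac peaks the shares were 49.4% at gene ends and 50.2% elsewhere in the lowest quartile, 72.1% and 74.7% in the next to highest, and 92.3% and 91.7% in the highest. In the second quartile the H3K9/14ac share was lower at gene ends, at 47.8% (43.9 to 51.8), than elsewhere, at 57.8% (54.5 to 61.1).

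Around gene starts H3K27ac reached further upstream and H3K9/14ac covered more genes. A start with its strand was known for 4288 of the 5157 genes. Coverage of both marks was highest 200 bp into the gene, where H3K27ac peaks covered 37.8% and H3K9/14ac peaks 49.8% of the genes. At the start itself the shares were 29.3% and 41.9%. H3K27ac had a second, lower crest upstream, with 29.0% of genes covered at 300 bp before the start and 25.3% at 100 bp before it, and H3K9/14ac climbed without a dip, with 28.6% and 34.3% at these positions. At 500 bp upstream the order was turned, with 24.2% of genes covered by H3K27ac and 19.8% by H3K9/14ac. Coverage stayed above 50% of its maximum over 1400 bp for H3K27ac and over 1100 bp for H3K9/14ac.

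**Figure D2:**
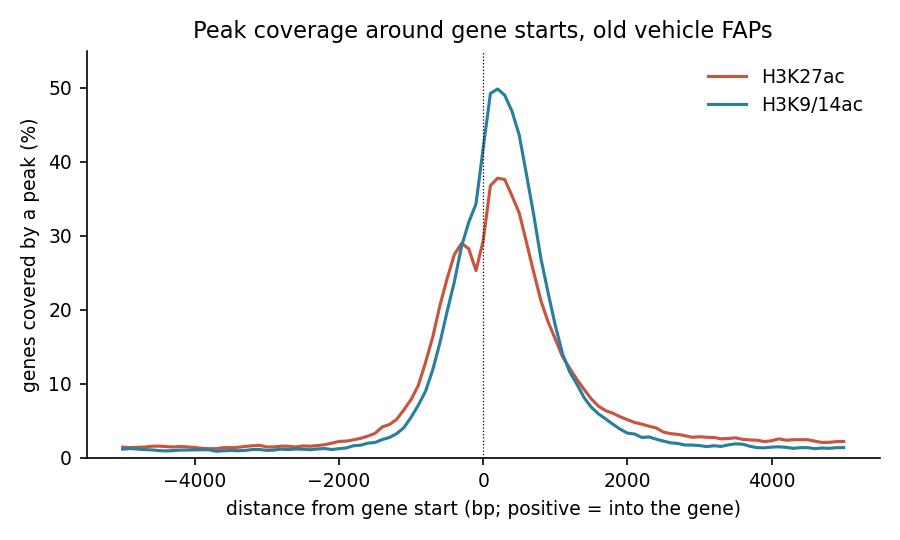
Share of 4288 genes (in percent) whose position at each distance from the gene start (in bp, positive into the gene, steps of 100 bp) lies in a peak of H3K27ac or of H3K9/14ac. H3K27ac dips to 25.3% at 100 bp before the start and extends further upstream, and H3K9/14ac peaks higher, at 49.8%.

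In regions that carried both marks the balance of tags shifted with place. At gene ends (2333 regions) the median was 196 H3K27ac and 278 H3K9/14ac tags, and away from them (1258 regions) it was 169 and 121.5 tags. The median log2 ratio of H3K27ac over H3K9/14ac tags was -0.37 (-0.41 to -0.33) at gene ends and 0.43 (0.36 to 0.51) elsewhere, a difference of -0.80 (-0.91 to -0.70) on the log2 scale. H3K27ac had the larger number of tags in 34.2% of the regions at gene ends and in 66.2% of those elsewhere. Away from gene ends the ratio was 0.38 inside genes and 0.62 outside them. The length under H3K27ac hardly differed, with a median of 961 bp at gene ends and 962.5 bp elsewhere. That under H3K9/14ac was 938 bp at gene ends and 625.5 bp elsewhere. Across all 3591 regions the log2 tags of the marks had a Pearson's r of 0.52, which describes regions of 2 libraries that share width and sequence and carries no test.

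**Figure D3:**
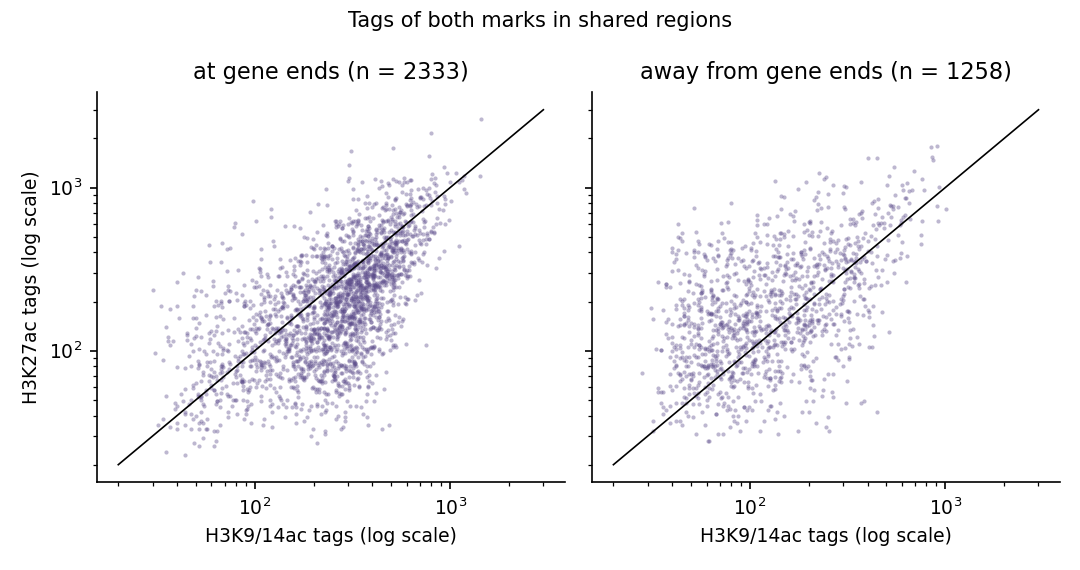
Tags of H3K27ac (vertical, log scale) against tags of H3K9/14ac (horizontal, log scale) in each region with both marks, at gene ends on the left and away from them on the right; the line marks equal tags. Points at gene ends lie mostly below the line and those elsewhere mostly above it.

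Counted by gene, 42.3% of the protein-coding genes (2179 of 5157) had both marks at a gene end. Only H3K27ac was found at 86 genes (1.67%), only H3K9/14ac at 611 (11.8%), and neither at 2281 (44.2%). H3K27ac was thus present at 43.9% and H3K9/14ac at 54.1% of the genes. Among the 4288 genes with a known start, 1928 had both marks within 1000 bp of a start, 33 only H3K27ac and 517 only H3K9/14ac. Of the 611 genes with only H3K9/14ac at an end, 226 (37.0%) had an H3K27ac peak elsewhere in the gene or within 10000 bp of it.

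The genes with both marks and the most tags at their ends were Mef2d, Jun, Mtmr11, S100a5 and Ccdc28b. Mef2d, a transcription factor of the MEF2 family, had 2632 H3K27ac and 711 H3K9/14ac tags there. Jun had 1623 and 1491 tags of the marks, in that order. S100a5 lies in the S100 cluster of calcium-binding proteins and had 1816 H3K27ac and 839 H3K9/14ac tags. Relative to the median over all genes tested, the tag ratio of the 5 over the gene and 10000 bp either side ran from 0.37 at Jun to 1.89 at S100a5 on the log2 scale.

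Among genes with only H3K27ac at an end, Mcl1, Sirpa, Gbp2b, Eprs and S100a3 had the most tags. Mcl1, an anti-apoptotic protein of the BCL2 family, had 2447 H3K27ac tags at its annotated ends, but a further start inside the gene carried both marks, as at Eprs and S100a3. For these 3 genes the class rests on which annotated end is read. Gbp2b, an interferon-induced guanylate-binding protein, had 737 tags, all in 1 peak that covers the start of the neighbouring Gbp2. Sirpa, the receptor for CD47, had 870 tags.

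The genes with only H3K9/14ac and the most tags were Ubxn11 with 638, Epb41 with 600, Spout1 with 525, Dph2 with 487 and Rnf152 with 457. Epb41 encodes protein 4.1 of the membrane skeleton and Dph2 a subunit of diphthamide synthesis. Rnf152, a ubiquitin ligase of the lysosome, had no H3K27ac peak in the gene or within 10000 bp of it. The other 4 had 87 to 382 H3K27ac tags in that window. The gene classes thus differed in strength, with a median of 264 H3K27ac and 358 H3K9/14ac tags at the ends of genes with both marks, 186 H3K27ac tags in the first lone class and 164 H3K9/14ac tags in the second.

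For each gene the tags of both marks were also summed over the gene and 10000 bp either side. The median log2 ratio over the 2762 genes with at least 200 tags together and 20 of each was -0.35, and ratios below are relative to it. H3K27ac stood at least 2-fold above this median at 459 genes (16.6%) and at least 2-fold below it at 443 (16%).

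FAP identity genes had H3K27ac well beyond their ends. Of the 10 in the stretch 6 had both marks at a gene end, 2 only H3K27ac (Fap and Prrx1) and 2 only H3K9/14ac (Igfbp5 and Dpp4), where 42.3%, 1.67% and 11.8% of all genes did. In the window 7 of the 10 stood at least 2-fold above the median ratio, against 16.6% of all genes tested, and the median of the list was 1.73 on the log2 scale. This lean was not particular to the list: 5 of 7 endothelial genes with enough tags stood as far above, with a list median of 1.21. In the pericyte and smooth muscle list and in the tenocyte and Schwann cell list 2 of 3 did. Of muscle stem cell, macrophage and lymphocyte genes 3 of 7, 1 of 6 and 2 of 7 did. Cd34, a sialomucin of progenitor cells, had 2459 H3K27ac and 309 H3K9/14ac tags in its window. Fap, the fibroblast activation protein, had 871 and 79 tags. Prrx1, a homeobox factor of limb mesenchyme, had 1842 H3K27ac and 622 H3K9/14ac tags, and its start inside the annotated gene carried both marks. Twist2, a basic helix-loop-helix factor, went the other way with 153 H3K27ac and 369 H3K9/14ac tags.

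Of 33 matrix and fibrosis genes 17 had both marks at a gene end (42.3% of all genes did), 3 only H3K27ac (1.67% of all genes) and 7 only H3K9/14ac (11.8% of all genes), and 13 of the 23 with enough tags stood at least 2-fold above the median ratio (16.6% of all genes tested) and 1 at least 2-fold below it (16%). Col3a1 was the most extreme, with 1424 H3K27ac and 40 H3K9/14ac tags in its window. Postn, which encodes the matrix protein periostin, had 131 H3K27ac tags and no H3K9/14ac peak. Col6a3 held the second widest H3K27ac peak of the stretch, 9139 bp with 2162 tags, and its window held 2259 H3K27ac tags over 9867 bp and 795 H3K9/14ac tags over 4049 bp. Genes with only H3K9/14ac at a gene end were Serpine2, Col24a1, Tnc, Col9a2, Col8a2, Col4a3 and Col4a4. The neighbours Col4a3 and Col4a4 have their 158 H3K9/14ac end tags in the same peak. Of these genes only Tnc and Col9a2 had no H3K27ac peak in the window. Serpine2 leaned to H3K27ac there, with 443 H3K27ac and 228 H3K9/14ac tags.

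The interferon response list held several genes with H3K27ac alone. Of its 26 genes in the stretch 14 had both marks (42.3% of all genes did), 6 only H3K27ac (1.67%) and 3 only H3K9/14ac (11.8%). Of the 17 with enough tags 9 stood at least 2-fold above the median ratio (16.6% of all genes tested) and 2 at least 2-fold below it (16%). The 6 were Gbp3, Ifi205, Ifi211, Ifi204, Zbp1 and Ifi44, which encode a guanylate-binding protein, 3 members of the DNA-sensing IFI200 family, a nucleic acid sensor and an interferon-induced protein. Gbp3 had 476 H3K27ac tags and Ifi205 had 702 in its window, both with no H3K9/14ac peak. B2m, the light chain of class I molecules, had both marks with 1039 H3K27ac and 487 H3K9/14ac tags at its ends. Adar and Trim14 were among those with only H3K9/14ac at an end.

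Cell cycle and senescence genes are set beside all genes, of which 42.3% had both marks, 1.67% only H3K27ac and 11.8% only H3K9/14ac. Of 29 cell cycle genes 13 had both marks, 11 only H3K9/14ac and 5 neither. Cdca8, a subunit of the chromosomal passenger complex, had no H3K27ac peak in its window and 321 H3K9/14ac tags. Nek2, Mcm3, Bub1b and Tpx2, which act in mitosis or replication, were of the same class. Cks1b (1119 H3K27ac and 448 H3K9/14ac tags) and Pcna (532 and 159 tags) had both marks. Of 13 senescence genes 4 had both marks and 5 only H3K9/14ac. Cdkn2a, which encodes the p16 and p19 inhibitors of proliferation, had no H3K27ac peak in its window and 204 H3K9/14ac tags, while the neighbouring Cdkn2b had 43 H3K27ac and 110 H3K9/14ac tags.

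Adipogenesis genes included several with strong marks of both kinds. Of 13 genes 7 had both marks, a share near the 42.3% of all genes, and 3 only H3K9/14ac (11.8% of all genes), namely Fabp5, Fabp3 and Lepr. Cebpb, an early adipogenic factor, had 810 H3K27ac and 776 H3K9/14ac tags at its ends, and Klf4 had 1066 and 1228. Irs1, the insulin receptor substrate, had 981 H3K27ac tags at its ends and held the widest H3K9/14ac peak of the stretch, 4660 bp with 1174 tags. Fabp4, the lipid carrier of adipocytes, leaned to H3K27ac with 264 H3K27ac and 40 H3K9/14ac tags at its ends.

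Immediate early genes, which are switched on within minutes of a stimulus, were nearly all marked. Of 15 genes 12 had both marks (42.3% of all genes did), 1 only H3K27ac (Mcl1) and 2 only H3K9/14ac (Rgs2 and Dusp2). Id3, an inhibitor of basic helix-loop-helix factors, had 1488 H3K27ac and 675 H3K9/14ac tags. Atf3 had 236 and 851 tags and so leaned to H3K9/14ac. The list had the highest sum of tags per gene of the 24 lists for both marks, 710 H3K27ac and 550 H3K9/14ac tags.

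Genes of basic cell functions carried both marks with a balance near that of all genes. All 15 cytosolic ribosomal protein genes, 28 of 29 proteasome and splicing genes and 18 of 20 respiratory chain genes had both marks at a gene end. Of all genes 42.3% had both marks there and 11.8% only H3K9/14ac. The median relative log2 ratio was -0.08, -0.06 and -0.32 in these lists. Mitochondrial ribosomal protein genes lay lowest of the 4 at -0.57, with 13 of 17 carrying both marks and 3 only H3K9/14ac. Mrpl47 and Ndufb5 share a start region and therefore the same tags.

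Signalling and transcription factor lists stood close to all genes in their share with both marks. Of 47 developmental transcription factors 20 had both marks, of 27 genes of Wnt, Notch and Hedgehog signalling 11, and of 24 genes of TGF-beta and BMP signalling 10. Among all genes the share was 42.3%. In the window ratio 12 of 26 developmental transcription factors stood at least 2-fold above the median and 3 as far below. For Wnt, Notch and Hedgehog signalling it was 3 of 14 above and 3 below. For TGF-beta and BMP signalling it was 4 of 13 above and 0 below. Of all genes tested 16.6% stood above and 16% below. Nfib, a nuclear factor I protein, had 2013 H3K27ac and 430 H3K9/14ac tags at its ends. Fzd5, a Wnt receptor, had 66 and 513 tags, and Pbx3, a homeobox cofactor, had 88 and 551. Of 15 genes of histone acetylation enzymes and readers 12 had both marks, among them Hdac1 with 110 H3K27ac and 244 H3K9/14ac tags and Ncoa3 with 481 and 608.

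Marker lists of other cells differed widely in how many genes were marked. Among all genes 42.3% had both marks, 1.67% only H3K27ac, 11.8% only H3K9/14ac and 44.2% neither. Of 21 macrophage genes 3 had both marks, 1 only H3K27ac (Sirpa) and 1 only H3K9/14ac (Tlr5). Csf1, which mesenchymal cells also make, gave 1262 of the 2540 H3K27ac tags and 937 of the 1430 H3K9/14ac tags of that list. Of 19 lymphocyte genes 3 had both marks and 2 only H3K9/14ac, of 11 muscle stem cell genes 4 had both, of 7 pericyte and smooth muscle genes 2 had both and 3 only H3K9/14ac, and of 7 tenocyte and Schwann cell genes 3 had both, 1 only H3K27ac and 1 only H3K9/14ac. The 14 endothelial genes averaged 216 H3K27ac and 200 H3K9/14ac tags at their ends, against 333 and 168 for the FAP identity genes. Cd34 alone gave 1709 of the 3332 H3K27ac tags of the FAP identity list, so its higher H3K27ac average rests largely on that gene. Eng, with the most H3K27ac tags of the endothelial list, gave 745 of 3019. Tek stands in both of these lists. The 20 muscle fibre genes averaged 3.25 H3K27ac and 13.2 H3K9/14ac tags.

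**Figure D4:**
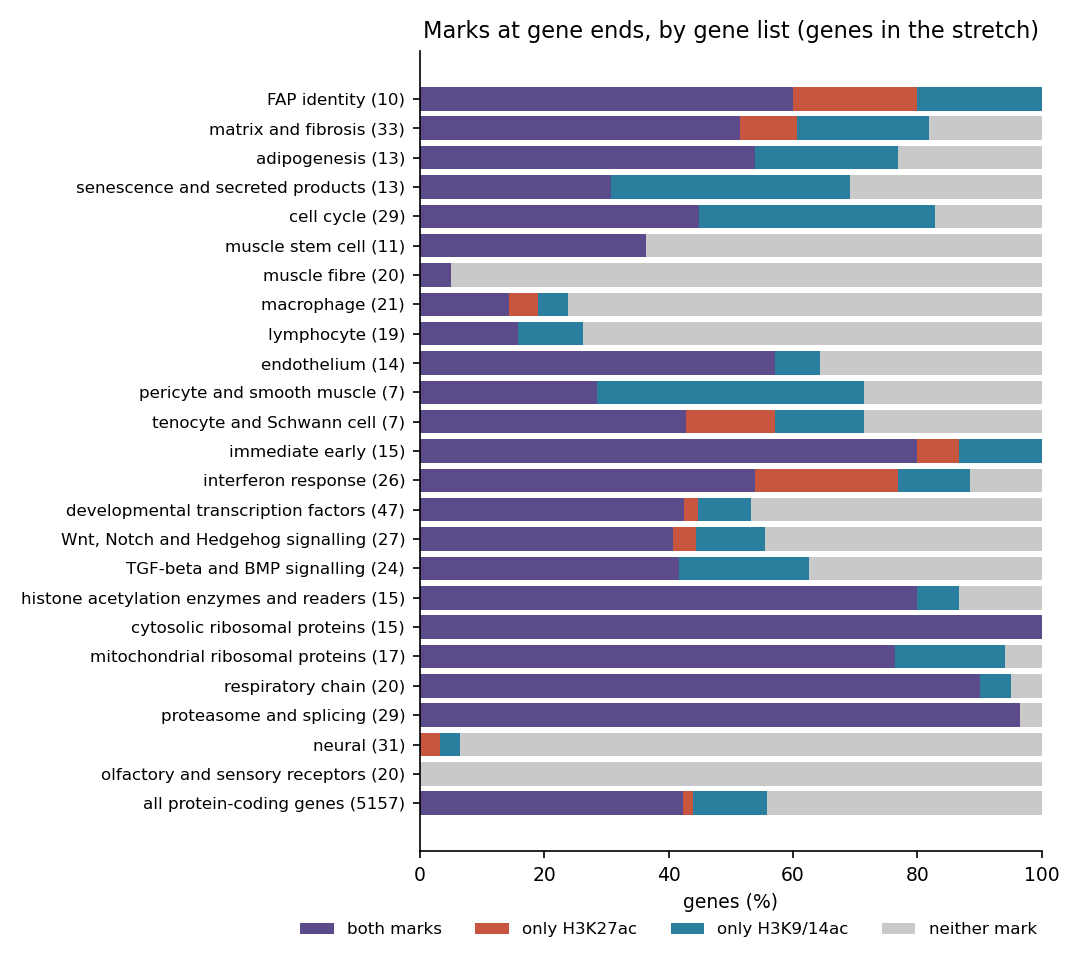
Share of the genes of each list (bars, in percent, number of genes in brackets) with both marks, only H3K27ac, only H3K9/14ac or neither at a gene end, with all 5157 protein-coding genes in the lowest row. Ribosomal, proteasome and splicing genes are almost wholly of the class with both marks, and only H3K27ac is most visible among FAP identity and interferon response genes.

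The 5 genes at the H3K27ac extreme of the window ratio were Nmnat2, Col3a1, Adamtsl1, Fgf7 and Ifi203. Nmnat2, an enzyme of NAD synthesis, led with 2021 H3K27ac and 45 H3K9/14ac tags, none of them at a gene end. Col3a1 followed, then Adamtsl1, a matrix protein of the ADAMTS-like family, with 1848 and 71 tags, also away from its ends. Fgf7, a fibroblast growth factor made by mesenchyme, had 1538 H3K27ac and 98 H3K9/14ac tags, and Ifi203 of the IFI200 family had 705 and 49. At the other extreme were Ttll11, Nes, Bahd1, Dsn1 and Cacfd1. Nes had 56 H3K27ac and 756 H3K9/14ac tags, Bahd1, a heterochromatin protein, had 99 and 1273, and Dsn1, a kinetochore subunit, had 60 and 753.

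The widest peaks of the marks lay at different genes. The 3 widest H3K27ac peaks lay at Mef2d (9679 bp), at Col6a3 (9139 bp) and inside Hspg2 (7759 bp), which encodes the basement membrane proteoglycan perlecan. The 3 widest H3K9/14ac peaks lay at gene ends of Irs1 (4660 bp), of Jag1 (4278 bp), a Notch ligand, and of Fat4 (4066 bp), a protocadherin. Each of the 6 overlapped the other mark. Fat4 had 195 H3K27ac and 1105 H3K9/14ac tags at its gene ends.

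Away from gene ends the strongest regions with both marks held 1788 H3K27ac and 905 H3K9/14ac tags, 57825 bp outside Ak4, and 1781 and 848 tags inside Hspg2. The strongest regions with only H3K27ac lay inside Ddr2, a collagen receptor, with 884 tags over 5152 bp, inside Niban1 with 803 tags and inside Abca1, a cholesterol exporter, with 729 tags. The strongest with only H3K9/14ac lay inside Rgs20 with 484 tags over 2247 bp, inside Ankrd44 with 427 tags and 62640 bp outside Commd3 with 408 tags. That inside Ankrd44 lay at another annotated start of the gene. The lone H3K27ac regions named here were wider and held more tags than the lone H3K9/14ac regions named here. Over all lone regions the medians were 483 bp and 74 tags for H3K27ac and 480 bp and 86 tags for H3K9/14ac. The tags are not scaled between the libraries.

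Promoter sequence went with class. Over the window from 250 bases before to 50 bases after the gene start, the median ratio of observed to expected CpGs was 0.80 in 1875 genes with both marks within 1000 bp of that start. It was 0.27 in 34 genes with only H3K27ac, 0.70 in 511 with only H3K9/14ac and 0.23 in 1868 with neither, against 0.60 over all 4288. The median of the genes with only H3K27ac thus lay nearer to that of genes with neither mark than to that of genes with both. The median GC content was 61.7% with both marks, 47.2% with only H3K27ac, 61.7% with only H3K9/14ac and 48.7% with neither.

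**Figure D5:**
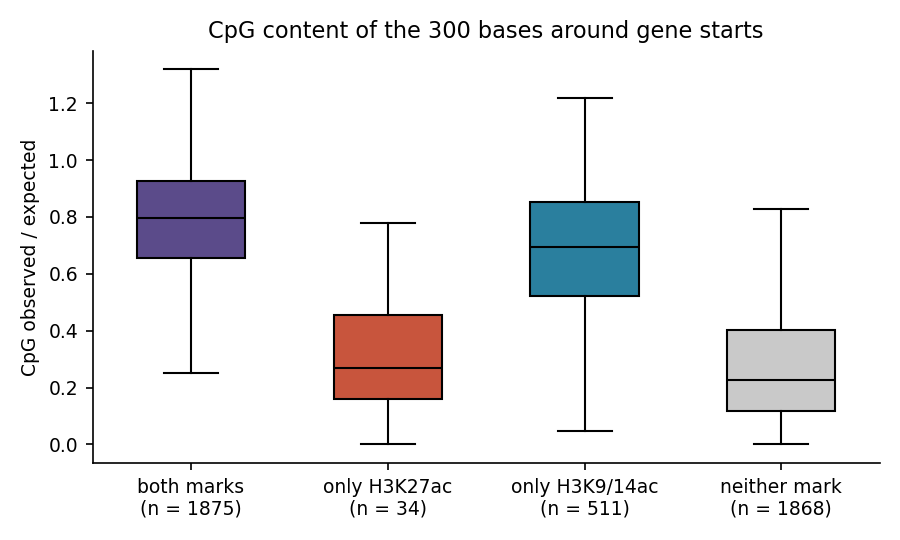
Ratio of observed to expected CpGs in the window around the gene start for genes of each class (box, quartiles and median; whiskers reach to 1.5 times the quartile range). Medians are 0.80 with both marks, 0.27 with only H3K27ac, 0.70 with only H3K9/14ac and 0.23 with neither.

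Short motifs were searched in the same windows on both strands. The GC box GGGCGG was found in 69.0% of promoters with both marks, 26.5% with only H3K27ac (12.9 to 44.4), 65.8% with only H3K9/14ac and 21.2% with neither, and in 47.4% of all. The TATA box TATAAA was found in 5.49%, 23.5% (10.7 to 41.2), 8.02% and 22.4% of these classes and in 13.3% of all. TGCGCA, the core of the NRF1 motif, was found in 16% (14.4 to 17.7) of promoters with both marks, 5.88% (0.72 to 19.7) with only H3K27ac, 8.81% (6.50 to 11.6) with only H3K9/14ac and 3.43% with neither, and in 9.58% of all. It differed between the classes rich in CpG beyond counting error. The CCAAT box CCAAT was in 37.8%, 47.1%, 35.4% and 37.4% of the classes in the same order and in 37.4% of all, and the AP1 motif TGANTCA in 3.89%, 11.8%, 3.72% and 12.0%, and in 7.49% of all. The CRE motif TGACGTCA was in 3.20% of promoters with both marks, in 1.96% with only H3K9/14ac, in 0.482% with neither and in 1.84% of all. It was in 0 of the 34 with only H3K27ac, with an interval that reaches to 10.3%. GC box, NRF1 and CRE motifs contain CpG themselves, so their shares follow the CpG content in part. A match is a run of letters and not a bound site.

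MicroRNA genes could be placed by their hairpins, of which 214 lie in the stretch. Both marks covered 16 hairpins, H3K27ac alone 2 and H3K9/14ac alone 7. The mature microRNAs of 3 of these genes are given because their hairpins differ in marks; they come from RefSeq on GRCm38.p6, 5′ to 3′, with the seed (bases 2 to 8) in capitals, and the genes were chosen after their values were seen.
miR-199a-5p, of Mir199a-2: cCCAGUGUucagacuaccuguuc
miR-199a-3p, of Mir199a-2: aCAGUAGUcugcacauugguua
miR-199b-3p, of Mir199b: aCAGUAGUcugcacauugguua
miR-126a-3p, of Mir126a: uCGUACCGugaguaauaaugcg
The mature miR-199a-3p and miR-199b-3p are identical and share the seed CAGUAGU, while miR-199a-5p has the seed CCAGUGU and miR-126a-3p the seed CGUACCG. The miR-199 genes lie antisense within dynamin genes and are expressed in mesenchymal cells. Mir199a-2 on chromosome 1 lay in an H3K27ac peak of 2195 bp with 764 tags and an H3K9/14ac peak of 787 bp with 251 tags. Mir199b on chromosome 2 lay in an H3K27ac peak of 1544 bp with 270 tags and an H3K9/14ac peak of 802 bp with 129 tags. Mir126a, an endothelial microRNA within Egfl7, lay in no H3K27ac peak and in an H3K9/14ac peak of 3321 bp with 520 tags. The H3K9/14ac peak was the widest region with only H3K9/14ac in the stretch. How the hairpins' host transcripts are read was not measured.

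The old vehicle classes were then looked up in the other libraries of the series, over the parts of the stretch that each mark's 4 lists share. Of the old vehicle regions with only H3K9/14ac, 1433 lay where all H3K27ac lists reach, and 37.4% (34.9 to 40.0) held an H3K27ac peak in old TSA, 35.0% in young vehicle and 29.2% in young TSA. Together 47.5% held one in at least 1 of these 3 libraries. Of 2128 regions with only H3K27ac, 8.65% held an H3K9/14ac peak in old TSA, 7.14% in young vehicle and 12.6% in young TSA, and 19.2% in at least 1. At gene ends the share among these regions was 51.5% of 196, and elsewhere 15.9% of 1932. Regions with both marks mostly had each mark in every other library, 96.6% for H3K27ac and 81.2% for H3K9/14ac. For H3K27ac this share was 98.1% at gene ends and 93.8% elsewhere. For H3K9/14ac it was 94.2% of 1252 regions at gene ends and 56.8% of 666 elsewhere.

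On the stretch that all 8 lists cover (chromosome 1 and chromosome 2 to position 167064301, 2824 genes) each condition was set out the same way. Regions with both marks were at a gene end in 65.2% of cases in old vehicle, 70.4% in old TSA, 63.6% in young TSA and 70.7% in young vehicle. The log2 ratio at gene ends minus that elsewhere was -0.86, -0.78, -0.88 and -0.67 in the same order, so it was negative in each of the 4 pairs of libraries. Genes with only H3K9/14ac at an end numbered 322 in old vehicle, 172 in old TSA, 263 in young TSA and 135 in young vehicle. Those with only H3K27ac numbered 48, 67, 44 and 68 in that order. The number of H3K27ac peaks was 4210 in old vehicle, 5564 in old TSA, 4325 in young TSA and 5791 in young vehicle, and of H3K9/14ac peaks 3235, 2474, 3336 and 2711. The part of list length in the gene counts was not tested.

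For genes named above the window tags of the other libraries are set beside those of old vehicle. Col3a1 had 1424 H3K27ac and 40 H3K9/14ac tags in old vehicle, 2438 and 214 in old TSA, 1930 and 49 in young TSA and 3917 and 272 in young vehicle. Fap had 79 H3K9/14ac tags in old vehicle, 151 in old TSA, 150 in young TSA and 226 in young vehicle. Cdkn2a had no H3K27ac peak in its window in old vehicle, old TSA or young TSA, beside 204, 164 and 128 H3K9/14ac tags. Rgs20 likewise had no H3K27ac peak in any of the 4 lists. Nes differed, with 56 H3K27ac tags in old vehicle, 1001 in old TSA, 989 in young TSA and 721 in young vehicle. Its H3K9/14ac tags were 756 in old vehicle, 422 in old TSA and 921 in young TSA, the young vehicle list as used here ending before this gene. Gbp3 had no H3K9/14ac peak in old vehicle and 124 tags in old TSA and 143 in young TSA. Each of these values comes from 1 library and none was tested.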

How the data were processed

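Per the submitters' processing notes the tools were Bowtie 0.12.7, DESeq2, HOMER, HTSeq 0.6.1p1, MACS2 and TopHat2 2.0.9 with build GRCm38; their roles are not stated. Per the file headers each peak list came from HOMER with a library set against itself. The deposited tag count per peak is a whole number and not normalized. For every peak the fold ratio the authors deposited is 1 and the score they deposited is 0. Their deposited p-value ranges over 0.502 to 0.531, and these columns were not used. Each list as used here ends within 1 incomplete line, which was left out; input samples were not used here.

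Peaks of the marks were merged where they overlapped or touched. Genes came from RefSeq (GRCm38.p6), and starts with strand from its promoter table. A gene end is 1000 bp either side of an annotated end. A peak across a window border gave tags in proportion. The peak's own positions and tags are the authors'. The steps were tested on simulated data (Python 3.11.15, numpy 2.4.6, pandas 2.3.3, scipy 1.17.1).

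Members and the 24 lists (711 symbols, all matched, 455 in the stretch, 28 in more than 1 list) were chosen with earlier results of these data known. Named genes are the 5 with most end tags per class, the 5 highest and 5 lowest window ratios, those nearest the 3 widest peaks per mark and the 3 strongest regions away from gene ends per class, and up to 4 per list plus lone class members; further list members, microRNAs and the printed promoters were chosen after their values were seen. Alternatives are listed in the closing section. Some single genes are not reported here.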

Additional observations from a re-analysis of the deposited data

Results flagged for a closer look

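The raw median log2 ratio of H3K27ac over H3K9/14ac tags in regions with both marks at gene ends was negative in old vehicle (-0.43) and positive in the other conditions, at 0.44 in old TSA, 0.038 in young TSA and 0.41 in young vehicle, over the stretch that all 8 lists cover. The difference was not tested, each condition having 1 library per mark, and the ratio is not scaled to library depth, so that a shift of all regions of a condition cannot be told apart from depth. Away from gene ends the ratio was 0.43 in old vehicle, 1.22 in old TSA, 0.91 in young TSA and 1.08 in young vehicle.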

How the results depend on the processing

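No paired analysis was possible because each mark has 1 library in old vehicle FAPs and no result comes from a test; for the same reason no replicate could be left out. Of 49 values recomputed for 9 results under 7 settings, 24 stayed within the interval or within 1.5 times the count and 25 moved. Shares and counts have no sign that could reverse. The ratio difference has one, and it stayed negative in each setting it was recomputed under. Taking the upper 50% of each list by tags gave 52.4% of H3K27ac peaks shared, 146 genes with only H3K27ac, 77.5%, 16.8% and 76.0% of regions with both marks, only H3K27ac and only H3K9/14ac at a gene end, and a ratio difference of -0.50. Under that setting regions with only H3K9/14ac were at gene ends nearly as often as those with both marks. Lists of equal length gave 57.4% of H3K27ac and 62.6% of H3K9/14ac peaks shared. Requiring an overlap of 50% of the shorter peak gave 48.5% and 65.8%. A gene end window of 2500 bp gave 70.8%, 16.8% and 59.2% of the 3 classes at a gene end. Gene starts alone gave 60.9%, 7.0% and 43.7%, with 33 genes with only H3K27ac and a ratio difference of -0.69. All annotated genes gave 71.4%, 15.6% and 54.4%. With the H3K9/14ac library labelled old TSA in place of old vehicle, a setting added after seeing the data, 73.3% of H3K9/14ac peaks were shared, the 3 classes were at gene ends in 70.2%, 7.82% and 58.5% of cases, and the ratio difference was -0.78. In every setting run, the lone H3K27ac regions had the lowest share at gene ends. Peaks of few tags limit what can be called absent: the smallest H3K27ac peak held 23 tags and the smallest H3K9/14ac peak 27, and a weaker signal gives no peak.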
